A study of Mus musculus with 3 samples.

Results

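The S100 family groups small calcium-binding proteins, and 8 of its genes, S100a1, S100a4, S100a6, S100a8, S100a9, S100a10, S100a11 and S100a13, were followed here in the leukocytes of the mouse aorta. The members were chosen by symbol among the 32285 genes counted, and all 8 had transcripts. The data are a single CITE-seq experiment, in which the transcripts of each cell are counted as unique molecular identifiers (UMIs) together with DNA-tagged antibodies bound to the cell. Aortic CD45+ cells came from 5 Jak2WT controls and 5 Jak2V617F Myel mice (Jak2V617F MyC in the labels), all on a C57BL/6 background; an aneurysm was seen by eye in 2 mutant aortas, and the other 3 were dilated without one. Each mouse carried its own hashtag antibody and is named by its number: mice 1 to 5 were Jak2WT, mice 6, 8 and 10 had dilation, and mice 7 and 9 had aneurysm. The controls were littermates; their Cre genotype and the age of these animals are not given in the sources used here. In the mutant mice Cre is driven by the Lysozyme M promoter, which is active mainly in myeloid cells, so that T, B and innate lymphoid cells are not its main targets. Circulating leukocytes were marked by an intravenous antibody and excluded from the sort, the sort was balanced between genotypes by a CD45.2 antibody of a different color for each, and the 10 mice shared 1 pool and 1 run.

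S100 proteins pair into dimers that change shape when calcium binds, and then hold on to other proteins. S100A8 and S100A9 together form calprotectin, the main cytosolic protein of neutrophils, which is released at sites of inflammation and is a ligand of TLR4 and of RAGE (Ager). S100A10 has lost calcium binding and forms a complex with annexin A2, S100A11 binds annexin A1, S100A6 (calcyclin) binds the calcyclin-binding protein Cacybp, and S100A4 binds the heavy chain of non-muscle myosin (Myh9). S100A1 acts on calcium pumps and channels of muscle and other cells, and S100A13 takes part in the unconventional export of FGF1.

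After demultiplexing and removal of cells with many mitochondrial transcripts, 4871 of 8471 barcodes were kept. Between 112 and 553 cells per mouse were kept for Jak2WT, 345 to 774 for dilation and 795 to 811 for aneurysm, with 1038443 to 9643994 UMIs per mouse. Cells of aneurysm mice were deeper, with a median of 9817 to 10775 UMIs per cell against 5441.5 to 8293 in Jak2WT. The 3 libraries of the pool shared 8465 barcodes. Classes were named by marker genes that hold no S100 gene, and each name stands for cells that resemble that type. Resident macrophages were the sum of 3 subsets, Res-MGL1hi (Clec10a, which encodes MGL1, Cd209d, Cd209f, Cd209g), Res-Txnip hi (Txnip, Trf, Stab1) and Aqp1hi resident (Aqp1, Tppp3, Ecm1, Vsig4); IEG+ macrophages (Egr1, Jun, Zfp36) were kept apart, as were Ccr2+ inflammatory macrophages, interferon-response macrophages (IFNIC) and monocytes. The Ly6G antibody was highest on neutrophils, at a mean of 46.7 counts per cell against 1.33 in the next class, XCR1 on conventional dendritic cells of type 1 (cDC1) and CD117 on mast cells.

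All 8 genes lie on chromosome 3 of GRCm38, where S100a1, S100a13, S100a4, S100a6, S100a8 and S100a9 follow each other between positions 90511034 and 90695721, and S100a11 and S100a10 lie apart between 93520488 and 93564643. S100a4 (ENSMUSG00000001020) overlaps Gm42674 on the same strand, so reads of that stretch cannot be assigned with certainty. The bases before the start of 4 members are shown. S100a8 and S100a9 were chosen because they ran together over the cell classes, which rests largely on their height in neutrophils. S100a4 and S100a6, which lie next to them, were chosen because they had other patterns. The set of RefSeq promoters used here, on GRCm38.p6, held 7 of the 8 members and had no entry for S100a10. The sequences read 5′ to 3′ on the strand of the gene. Capitals mark the letters TTNNGNAA, a C/EBP-like motif, in S100a8 and S100a9, and TATAAA in S100a4, all searched on both strands.
S100a8, chr3:90668821-90668977, plus strand: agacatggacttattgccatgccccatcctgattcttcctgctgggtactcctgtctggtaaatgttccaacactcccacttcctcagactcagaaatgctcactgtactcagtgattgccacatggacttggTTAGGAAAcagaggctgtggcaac
S100a9, chr3:90695722-90695971, minus strand: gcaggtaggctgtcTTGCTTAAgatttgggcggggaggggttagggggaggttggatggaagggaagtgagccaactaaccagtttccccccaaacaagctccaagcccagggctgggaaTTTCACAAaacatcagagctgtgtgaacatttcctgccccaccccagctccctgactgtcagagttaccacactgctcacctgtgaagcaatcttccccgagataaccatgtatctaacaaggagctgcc
S100a4, chr3:90603520-90603769, plus strand: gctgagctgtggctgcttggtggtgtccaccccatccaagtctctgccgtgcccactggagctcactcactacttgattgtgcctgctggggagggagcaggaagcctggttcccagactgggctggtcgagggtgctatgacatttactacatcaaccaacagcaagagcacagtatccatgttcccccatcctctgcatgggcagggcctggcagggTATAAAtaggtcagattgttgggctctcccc
S100a6, chr3:90612644-90612881, plus strand: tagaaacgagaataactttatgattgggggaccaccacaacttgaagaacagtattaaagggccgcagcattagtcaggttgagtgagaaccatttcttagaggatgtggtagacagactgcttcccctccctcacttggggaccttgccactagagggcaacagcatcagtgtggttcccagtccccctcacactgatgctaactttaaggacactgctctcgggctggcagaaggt

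The C/EBP-like letters began 117 bases before the RefSeq start of S100a8, and 236 and 130 bases before that of S100a9. None of the other 5 windows of 250 bases held them, and 36.8% of 32851 promoters of that length did. TATAAA lay 31 bases before the start of S100a4 and 30 before that of S100a8, the latter in bases not printed here, and was held by 12.4% of promoters. The AP-1 letters TGANTCA occurred in S100a11 alone, 136 and 38 bases before its start, against 6.75% of promoters. The STAT letters TTCNNNGAA were in none of the 7 windows and in 7.02% of all promoters. S100a1 and S100a13 are read away from each other from starts 42 bases apart, and that short stretch between both genes is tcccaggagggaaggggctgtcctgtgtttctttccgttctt.

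Levels are given as UMIs per 1000000 gene UMIs (CPM) of the summed cells of 1 mouse and class, for mice with at least 10 cells of that class, and as mean ± SD over mice. In a 3′ library the length of a transcript does not enter its count. The classes were built from the same cells, so the order of levels is a description without a test.

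S100a8 and S100a9, the calprotectin genes, were high in 1 of the 15 classes put in order, the neutrophils. The order holds classes with at least 3 mice and leaves out the proliferating cells, which mix lineages, and the low-RNA macrophages. Proliferating cells held 1.91 CPM of S100a8 in Jak2WT mouse 3, 2.99 in aneurysm mouse 7, 5725 in aneurysm mouse 9 and 4546 in dilation mouse 10, and 6 of the 140 cells carried 99.8% of their S100a8 and S100a9 UMIs. In low-RNA macrophages S100a8 was 367 CPM in aneurysm mouse 9 and 0 to 45.1 in the other mice. In neutrophils S100a8 stood at 55712 CPM in Jak2WT mouse 3, 82206 in aneurysm mouse 7 and 28941 in aneurysm mouse 9, a mean of 55620 ± 26633 (SD, n = 3). S100a9 stood at 86217, 114190 and 31745 CPM in the same 3 mice, a mean of 77384 ± 41926. The next ordered class was gd T cells for S100a8, at 19.6 ± 5.92 CPM (n = 4), and Ccr2+ inflammatory macrophages for S100a9, at 33.2 ± 44.1 (n = 5); no mouse of either came near the neutrophil values. All 8 members together took 12.2% of all UMIs of the neutrophils, and S100a8 gave 40.1% and S100a9 54.2% of that sum.

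Thinned to 2000 UMIs per cell, 92.4% of 105 neutrophils held an S100a8 UMI (exact 95% interval 85.5% to 96.7%) and 94.3% an S100a9 UMI (88.0% to 97.9%), at a median depth of 4127 UMIs before thinning. In the large B cell cluster, which should lack both genes, the shares were 2.25% and 3.38% of 533 cells at a median depth of 5567. Resident macrophages, at 1.84% and 3.01%, lay in the same low range and were read as background. The shares of gd T cells were 4.67% and 3.33%. Before thinning, 12.4% of gd T cells held S100a8 (7.64% to 18.7%) at a median of 7388 UMIs. For large-cluster B cells this was 4.11% (2.62% to 6.10%) at 5388. Whether gd T cells were above background in S100a8 was not tested. Without thinning, 5.88% of Res-Txnip hi cells held S100a8 and 8.40% held S100a9. These intervals cover counting error only.

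In Ccr2+ inflammatory and IEG+ macrophages few cells carried most of the S100a8 and S100a9 counts. Among 506 Ccr2+ inflammatory macrophages, 2 cells held 82.4% of the S100a8 and S100a9 UMIs of the class, with up to 475 in 1 cell. Among 535 IEG+ macrophages, 1 cell of aneurysm mouse 9 held 158 of these UMIs, which was 67.5% of the class. Resident macrophages had no cell with 10 or more of them. In other classes the counts were spread. The 28 monocytes held 42.5 CPM of both genes together and gd T cells 36.5, against 19.3 in large-cluster B cells. No monocyte had more than 2 of these UMIs and no gd T cell more than 3. Without thinning, 25.0% of monocytes and 23.7% of Saa3+ myeloid cells held S100a8, at median depths of 12082 and 19987 UMIs. In large-cluster B cells it was 4.11% at 5388. Thinned to 2000 UMIs, S100a8 was held by 1.46% of Saa3+ myeloid cells, 3.57% of the 28 monocytes and 2.25% of large-cluster B cells. Saa3+ myeloid cells had 19.4 CPM of both genes together, close to the B cell level, but the genes differed in opposite directions. Over mice, S100a8 was 13.2 ± 4.86 CPM in Saa3+ myeloid cells (n = 3) and 6.14 ± 4.84 in large-cluster B cells (n = 9). S100a9 was 6.38 ± 1.56 and 11.8 ± 6.91 CPM, and the mice overlapped for both genes. The parts of depth and of level in the unthinned S100a8 share of Saa3+ myeloid cells were not tested.

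S100a6, S100a11 and S100a4 differed in what they did in neutrophils. S100a6 was second highest there, at 3430 ± 2540 CPM (n = 3), below gd T cells at 4041 ± 555 (n = 4) and above Aqp1hi resident macrophages at 2584 ± 367 (n = 8) and cDC2, the dendritic cells of type 2, at 2462 ± 481 (n = 9); these neighbours overlapped between mice. The 3 neutrophil values were 6299 in Jak2WT mouse 3 and 2523 and 1468 in aneurysm mice 7 and 9, so the place of neutrophils rests on the mix of genotypes. S100a11 was highest in neutrophils, at 3858 ± 1697 CPM, and every one of the 3 mice was above the next class, gd T cells at 1541 ± 208. S100a4 was low in neutrophils, at 53.7 ± 14.96 CPM, and S100a10 was lowest of all 15 ordered classes there, at 62.2 ± 50.9 CPM.

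**Figure D1:**
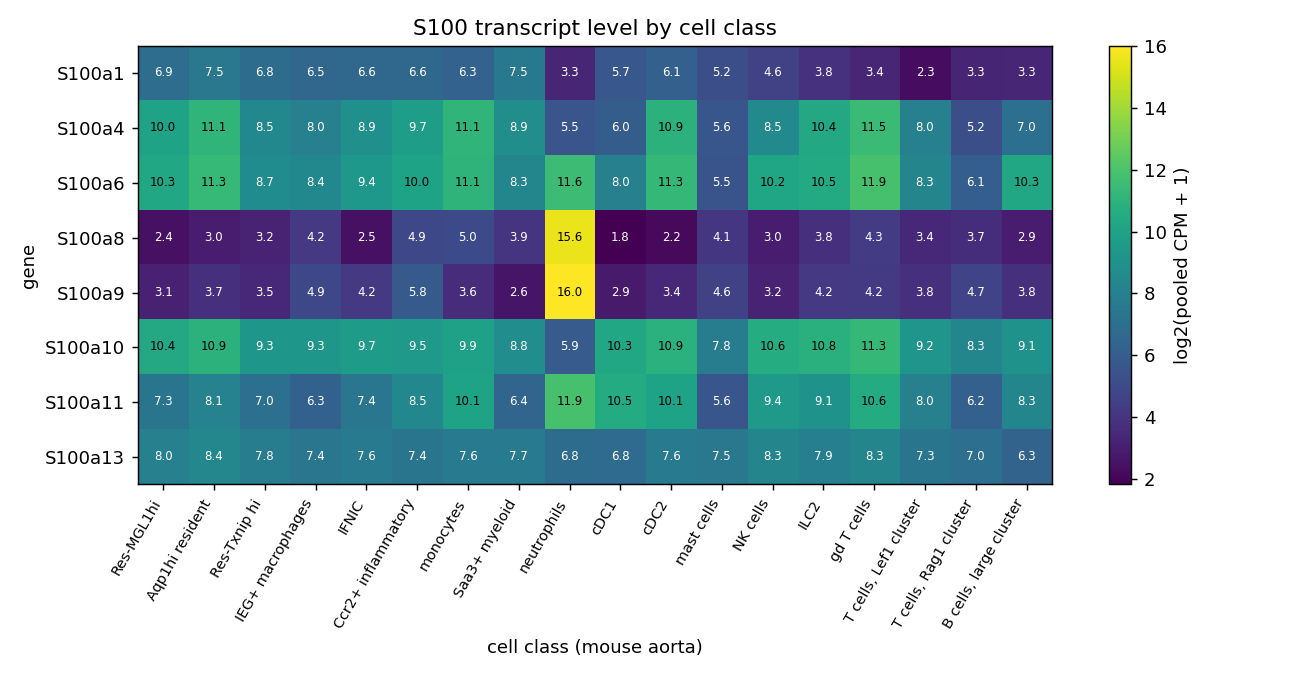
Heat map of transcript levels, with the 8 S100 genes as rows and 18 cell classes as columns; color and printed number give log2(CPM + 1) of the cells pooled over all mice. S100a8 and S100a9 stand out in neutrophils (pooled 48879 and 66103 CPM), and Ccr2+ inflammatory macrophages, with 55.2 CPM of S100a9, come next for that gene.

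gd T cells held the highest mean levels of S100a4, at 3032 ± 408 CPM (n = 4), of S100a6 and of S100a10, at 2635 ± 250. After thinning, 97.3% of 150 gd T cells held an S100a4 UMI and 98.7% an S100a6 UMI. The other T cells were far lower: the cluster with Lef1 stood at 295 ± 161 CPM for S100a4 (n = 10) and the cluster with Rag1 at 37.2 ± 3.99 (n = 4). Type 2 innate lymphoid cells (ILC2) lay between, at 1183 ± 386 CPM of S100a4 and 1710 ± 534 of S100a10 (n = 9). Natural killer cells, with 2 mice, stood at 359 ± 45.8 CPM of S100a4 and 1535 ± 76.6 of S100a10.

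Resident macrophage subsets differed widely in 3 of these genes. S100a4 was 2247 ± 269 CPM in Aqp1hi resident cells (n = 8), 1107 ± 526 in Res-MGL1hi (n = 7), 354 ± 109 in Res-Txnip hi (n = 10) and 235 ± 127 in IEG+ macrophages (n = 10). All 8 Aqp1hi values, from 1992 to 2651, were above every other macrophage value of S100a4. S100a6 followed the same order, with 2584 ± 367, 1374 ± 613, 415 ± 169 and 333 ± 142 CPM. S100a10 ran from 1840 ± 412 through 1335 ± 365 and 653 ± 222 to 565 ± 187 CPM, with overlap between each neighbouring pair. The study named 1 resident subset for S100 transcripts; the Aqp1hi class was delimited here with S100 genes left out of the clustering, though the genes that go with them were used. The 28 monocytes, too few in any mouse to be summed, held 2179 CPM of S100a4 (exact Poisson interval 2028 to 2338, counting error only) and 2145 of S100a6 (1995 to 2303).

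S100a11 was not high in the macrophages that held S100a4. It stood at 245 ± 64.3 CPM in Aqp1hi resident cells and 68.2 ± 19.9 in IEG+ macrophages, against 1534 ± 155 in cDC1 (n = 4) and 1010 ± 188 in cDC2. In cDC1, the cross-presenting dendritic cells, S100a11 gave 46.3% and S100a10 38.4% of the UMIs of the 8 genes, while S100a4, at 66.2 ± 63.0 CPM, gave 2.00%. In cDC2 the 3 mean levels of S100a4, S100a6 and S100a10 were between 1760 and 2462 CPM.

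Among the ordered classes S100a1 was highest in macrophages and Saa3+ myeloid cells, at a low level. It stood at 183 ± 37.2 CPM in Aqp1hi resident cells, 169 ± 33.1 in Saa3+ myeloid cells (n = 3) and 89.3 to 121 in the other macrophage classes with at least 5 mice, with overlap between neighbours. In T cells of the Lef1 cluster it was 2.75 ± 3.90 CPM, and in gd T cells, where S100a4 was highest, 4.82 ± 7.85. The 34 platelets, which were not put in order, held more, with 949 CPM from 48 UMIs (exact Poisson interval 699 to 1258, counting error only). The mean of S100a13 ran from 334 ± 35.5 CPM in Aqp1hi resident cells to 75.0 ± 14.5 in B cells of the large cluster (n = 9), and the 8 Aqp1hi values, 291 to 383, did not overlap with the 9 B cell values, 48.1 to 96.0. Mast cells were low in most members, with 35.8 ± 15.4 CPM of S100a4 and 54.3 ± 48.1 of S100a6 (n = 4), and 0.0611% of their UMIs came from the 8 genes.

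**Figure D2:**
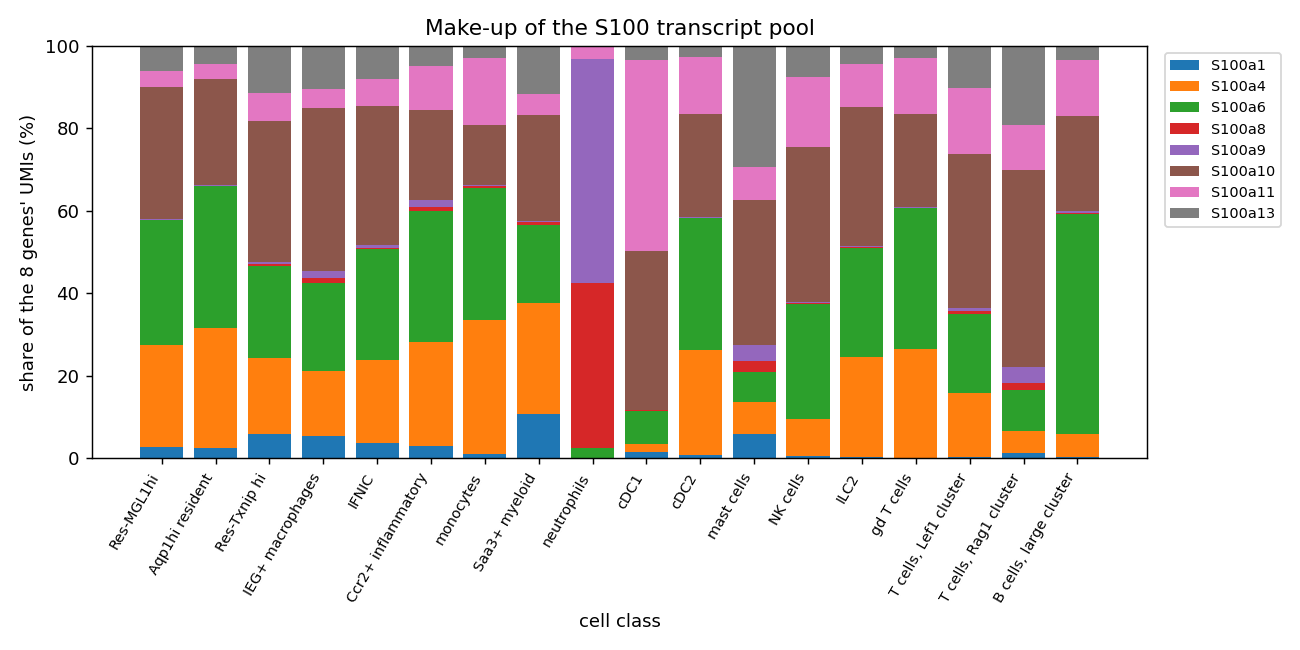
Stacked bars of the share (%) that each S100 gene took of the summed UMIs of the 8 genes in 18 cell classes, over all mice. S100a8 and S100a9 fill the neutrophil bar (40.1% and 54.2%), S100a11 leads in cDC1 (46.3%), and S100a13 is 29.4% in mast cells. S100a6 leads in large-cluster B cells pooled over mice (53.3%), but not in each mouse, as S100a10 was above it in aneurysm mouse 7.

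B cells varied between mice in S100a6. Jak2WT mice 1, 2, 3 and 5 had 352, 935, 254 and 1622 CPM, and mice 6 to 10 had 924, 140, 609, 249 and 2000. Over the large cluster the mean was 837 ± 713 CPM (n = 9), so the SD was close to the mean, and the genotypes overlapped fully.

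Pearson's r of mean log2(CPM + 1) over 18 classes, which share libraries and differ in depth, described how members and other genes ran together among 9238 genes that reached 20 CPM in a class. S100a8 ran most closely with S100a9 (r = 0.964), G0s2 and Mrgpra2b, and S100a9 with Amer2 (r = 0.986), Stfa2l1 and Il1f9. The genes most like S100a4 were Tmem176b (0.833), Rarg and Mdfic, and those most like S100a6 were Cdk2ap2 (0.838), Mthfsl and Cd53. S100a10 was closest to Rex1bd (0.887), Sept11 and Uqcc2, S100a11 to Cnn2 (0.874), Arpc3 and Fgl2, S100a13 to Plec (0.892), Ebp and Cuta, and S100a1 to Dcxr (0.943), 0610009B22Rik and Tmbim1. Between members, S100a4 had an r of 0.733 with both S100a6 and S100a10 and 0.755 with S100a13, and S100a10 had −0.675 with S100a9. Among these classes only neutrophils were high in S100a8 and S100a9, so the r values of both genes rest largely on that class.

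The known binding partners did not all follow their S100 gene over the classes. Ahnak, a giant scaffold protein bound by the complex of S100A10 and annexin A2, was highest in Aqp1hi resident cells (2020 CPM) and had an r of 0.742 with S100a10, whereas Anxa2, highest in cDC2 (808 CPM), had 0.191. Anxa1 was highest in neutrophils (1349 CPM), the class with most S100a11, with an r of 0.482. Cacybp had an r of −0.174 with S100a6. Of the calprotectin receptors, Tlr4 reached 65.6 CPM in Aqp1hi resident cells and its partner Ly96 141 CPM in Res-MGL1hi, while Ager did not exceed 0.335 CPM in any class. Emb, a further receptor, was highest in gd T cells at 1746 CPM.

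The comparison of genotypes asked whether the S100 genes changed with Jak2V617F. UMIs were summed per mouse and class. The sums were compared in edgeR (quasi-likelihood, two-sided), p-values were adjusted by Benjamini-Hochberg over all genes tested, and genes under 0.05 were called. Fold changes are mutant over Jak2WT. S100a8 and S100a9 were below the filter on low counts in every class but neutrophils, so they have no test elsewhere, and S100a1 was also below it in T cells, B cells and ILC2. In a sum over cells, fewer cells of a kind and less RNA per cell cannot be told apart.

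In resident macrophages the S100 gene with the largest genotype difference was S100a10. Its level was 991, 883, 555, 1426 and 1031 CPM in Jak2WT mice 1 to 5. It was 1116, 1485 and 1410 in dilation mice 6, 8 and 10, and 1521 and 1749 in aneurysm mice 7 and 9. Of the Jak2WT mice 4 of 5 were below every mutant mouse, and mouse 4 was within the mutant range. The log2 fold change was 0.58 (SE 0.18), a fold of 1.49 with an adjusted p of 0.15 in edgeR, which did not pass. No member separated the genotypes fully here, where 1.6% of genes had every mutant mouse above and 1.2% every mutant mouse below the controls. None of the 6 members tested was called (0 of 6, 1 of them at an unadjusted p under 0.05, and 0 by DESeq2), where 0.869% of all 6441 genes were. Of all genes 830 were at an unadjusted p under 0.05 and 98 were called by DESeq2. The median log2 fold change of the 6 was 0.18 and that of all genes −0.01.

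The call on S100a10 turned on several settings. Without Jak2WT mouse 4, the animal with fewest cells, its log2 fold change was 0.76 (adjusted p = 0.0316). It also passed with MULTIseqDemux in place of HTODemux (0.61, adjusted p = 0.0228) and with no filter on low counts (0.62, adjusted p = 6.57e-05). Both of these settings called more genes of all kinds, up to 312 with no filter against 56 in the reported fit. Leaving out 1 mouse at a time gave 0.42 to 0.76.

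S100a4 and S100a6, the motility-linked pair, overlapped between genotypes in resident macrophages. S100a4 was 964, 1420, 621, 895 and 1106 CPM in mice 1 to 5 and 1103, 1732, 1337, 1156 and 996 in mice 6 to 10, a log2 fold change of 0.34 (SE 0.17, adjusted p = 0.45). S100a6 was 781 to 1596 CPM in Jak2WT and 1136 to 2059 in mutant mice, with 0.29 (SE 0.16, adjusted p = 0.51). S100a1 (0.07, SE 0.12), S100a13 (0.00, SE 0.12) and S100a11 (−0.19, SE 0.30) were within about 1 SE of 0. For S100a11 the control group was wide: mice 1, 2, 3 and 5 had 125 to 192 CPM, mouse 4 had 471, and the mutant mice had 131 to 250.

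The share of Res-Txnip hi cells within resident macrophages was lower in mutant mice, a description without a test. Res-Txnip hi cells, which had the least S100a4, S100a6 and S100a10 of the 3 subsets, were 72.2%, 34.1%, 84.6%, 71.4% and 57.1% of the resident cells of mice 1 to 5 and 23.3%, 26.9%, 25.9%, 15.1% and 30.8% of those of mice 6 to 10, with no overlap. Fits on parts of the resident cells gave folds that were smaller or turned. In Res-Txnip hi cells alone the log2 fold change of S100a10 was 0.40 (adjusted p = 0.88), of S100a4 −0.08 and of S100a6 −0.27. Over Res-MGL1hi and Aqp1hi cells together it was 0.19 (adjusted p = 0.82), −0.39 and −0.37. That fit joined 2 subsets that differ in S100a4 and S100a6, so its folds are not those of a single subset. Whether the mix of these 2 subsets moved with the genotype was not tested. Jak2WT mice 3 and 4 had 33 of 39 and 20 of 28 resident cells in Res-Txnip hi. They were left with fewer than 10 cells for this last fit, so it had fewer controls than the fit of all resident cells. In Aqp1hi resident cells S100a4 was 2651, 2626 and 1992 CPM in Jak2WT mice 1, 2 and 5 and 2327, 2094, 2244, 2036 and 2005 in mice 6 to 10. Each of these values was high, and the genotypes overlapped.

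**Figure D3:**
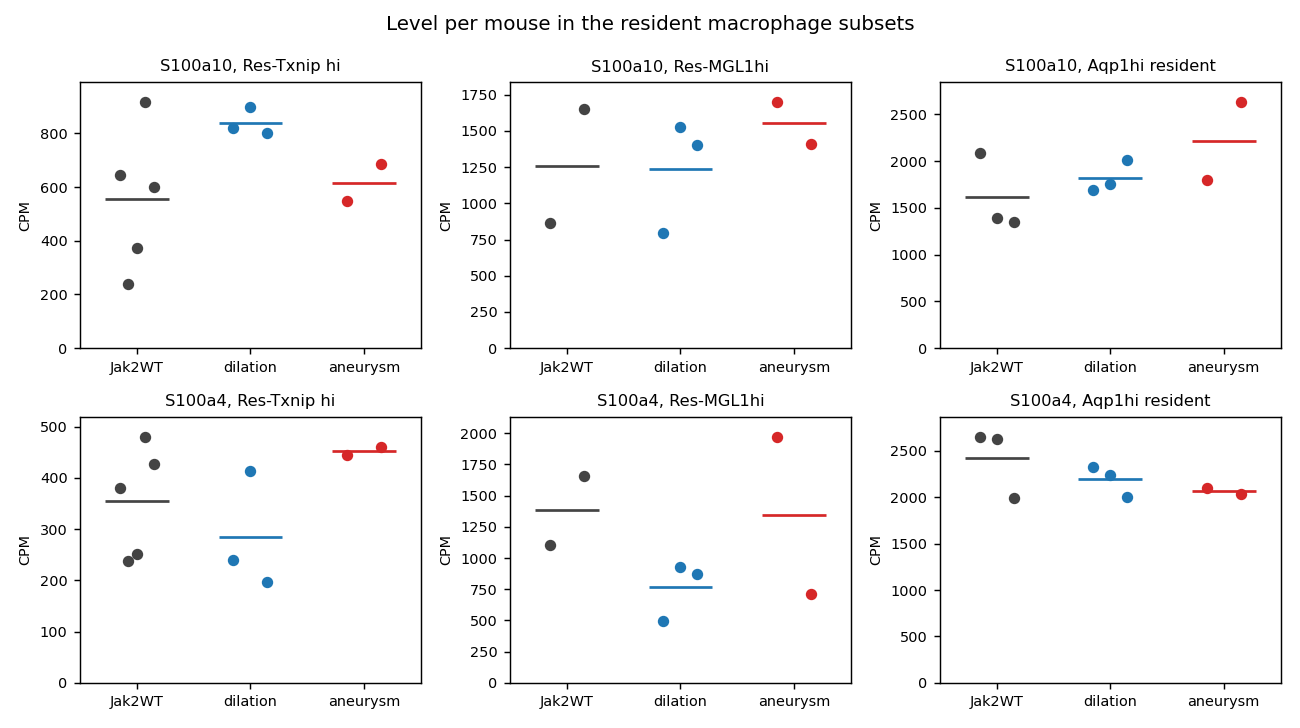
Level (CPM) of S100a10 (top) and S100a4 (bottom) in Res-Txnip hi, Res-MGL1hi and Aqp1hi resident macrophages by group; points are mice with at least 10 cells, lines group means. Jak2WT and mutant mice overlap in each panel, for S100a4 in Aqp1hi cells between 1992 and 2651 CPM.

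IEG+ macrophages, marked by immediate-early genes, showed S100a10 without overlap between genotypes. It was 444, 277, 435, 431 and 524 CPM in mice 1 to 5, 552, 591 and 810 in dilation mice 6, 8 and 10, and 713 and 880 in aneurysm mice 7 and 9. Every mutant mouse was above every Jak2WT mouse, which held for 1.75% of the 5200 genes tested and the opposite for 0.731%. The log2 fold change was 0.70 (SE 0.16), a fold of 1.62 with an adjusted p of 0.0628 in edgeR, just outside the threshold. By DESeq2 the same difference passed (0.69, adjusted p = 0.0195), as it did without Jak2WT mouse 5 (0.81, adjusted p = 0.0475), at macrophage resolutions 0.5 and 1.2 (0.84 and 0.86) and with no filter (0.78). The difference passed under no other setting and with no other mouse left out. DESeq2, both resolutions and no filter also called more genes of all kinds than the 12 of the reported fit, with counts given below. Over all alternatives the log2 fold change of S100a10 ran from 0.44 to 0.86.

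Of the 6 members tested in IEG+ macrophages none was called by edgeR (0 of 6, 2 at an unadjusted p under 0.05, 1 by DESeq2), against 0.231% of 5200 genes. Of all genes 573 were at an unadjusted p under 0.05 and 52 were called by DESeq2. S100a4 was 186, 36.6, 93.3, 351 and 156 CPM in mice 1 to 5 and 371, 206, 224, 436 and 289 in mice 6 to 10. Mouse 4 of the controls lay among the mutant mice and the other 4 below them all. Its log2 fold change of 1.099 (SE 0.34, adjusted p = 0.16) was 0.76 to 1.37 with 1 mouse left out. S100a6 gave 0.59 (SE 0.30, adjusted p = 0.49), from 83.4 to 464.5 CPM in Jak2WT and 288 to 573 in mutant mice. S100a11 gave 0.28 (SE 0.19), S100a1 −0.06 (SE 0.21) and S100a13 −0.12 (SE 0.15). The IEG+ class has lower S100a4 and S100a10 than Aqp1hi cells, and whether its make-up moved with the genotype was not tested.

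**Figure D4:**
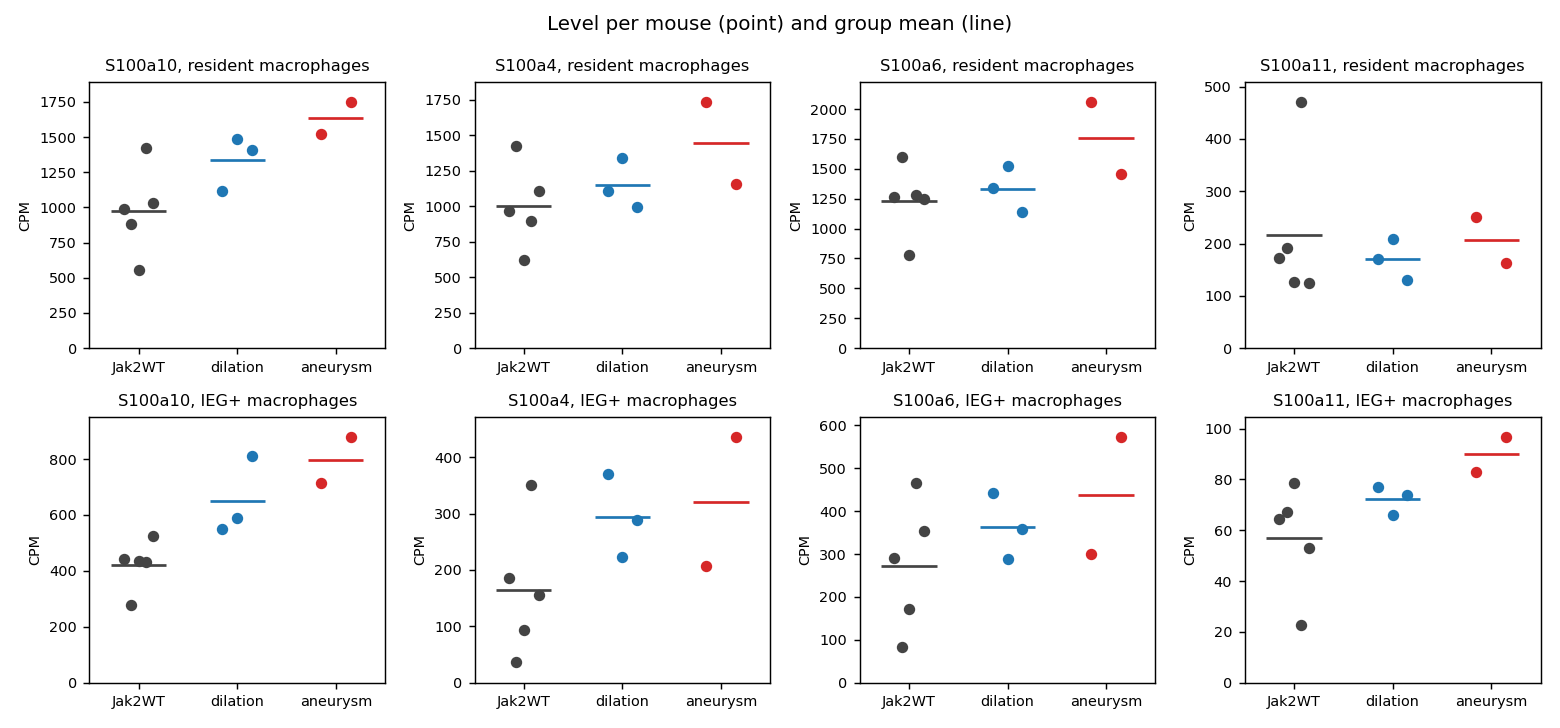
Level (CPM) of S100a10, S100a4, S100a6 and S100a11 per mouse in resident (top) and IEG+ macrophages (bottom) for Jak2WT, dilation and aneurysm mice; lines are group means. In IEG+ macrophages all 5 mutant mice lie at 552 CPM of S100a10 or above and all 5 Jak2WT mice at 524 or below.

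In neutrophils, 3 to 38 cells per mouse were at hand, and with at least 10 cells per sum only 1 Jak2WT mouse was left, so the genotypes were compared with sums of at least 1 cell. S100a6 was 6205, 3986, 6299, 5137 and 5632 CPM in mice 1 to 5 and 927, 2523, 2148, 1468 and 2965 in mice 6 to 10. Every mutant mouse was below every Jak2WT mouse, as for 2.55% of the 470 genes tested, while the opposite held for 1.49%. The log2 fold change was −1.48 (SE 0.35), a fold of 0.359 with an adjusted p of 0.0596 in edgeR. It passed by DESeq2 (adjusted p = 0.000639) and without aneurysm mouse 7 (−1.67, adjusted p = 0.0405), and ran from −1.67 to −1.28 with 1 mouse left out. With MULTIseqDemux it was −0.96 (adjusted p = 0.34), and with no filter or 3 groups in 1 fit the adjusted p was 0.13 and 0.11.

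The calprotectin genes did not separate the genotypes in neutrophils. S100a8 was 95036, 53387, 55712, 33156 and 90139 CPM in mice 1 to 5 and 12212, 82206, 37254, 28941 and 15080 in mice 6 to 10. Aneurysm mouse 7 lay among the controls and dilation mice 6 and 10 were lowest. The log2 fold change was −0.90 (SE 0.55, adjusted p = 0.39). S100a9, with −0.94 (SE 0.54, adjusted p = 0.36), and S100a11, with −0.76 (SE 0.38, adjusted p = 0.28), also overlapped. None of the 4 members tested was called by edgeR (1 at an unadjusted p under 0.05, 1 by DESeq2), and 0% of the 470 genes were, with 92 at an unadjusted p under 0.05 and 30 by DESeq2. The summed level of 12 neutrophil genes was 66479, 26563, 41138, 18119 and 87782 CPM in mice 1 to 5. It was 11053, 79526, 13051, 11438 and 13470 in mice 6 to 10. Mutant mice 6, 8, 9 and 10 were thus below every Jak2WT mouse, and mouse 7 was not. The part of this level in the S100 values, including S100a6, was not tested. S100a9 made up 59.0% of the S100a8 and S100a9 UMIs in Jak2WT neutrophils, 60.9% in dilation and 55.6% in aneurysm.

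In cDC2 no S100 gene was called, and S100a4 did not overlap between genotypes. It was 1600, 1617, 1261 and 1313 CPM in Jak2WT mice 1, 2, 4 and 5 and 1656, 1983, 2476, 1988 and 1945 in mice 6 to 10. Every mutant mouse was above every Jak2WT mouse, as for 2.51% of the 4138 genes tested, with 0.822% the other way. The log2 fold change was 0.42 (SE 0.14), and it did not pass after adjustment (adjusted p = 0.37). None of the 6 members tested was called (1 at an unadjusted p under 0.05, 0 by DESeq2), against 0.0242% of genes.

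T cells, B cells and ILC2, which LysM-Cre mainly spares, had no S100 call; gd T cells (1 Jak2WT and 3 mutant mice with at least 10 cells) and natural killer cells were not tested. In T cells 0 of 5 members tested was called (0 at an unadjusted p under 0.05, 0 by DESeq2), against 0.0259% of 3856 genes. S100a10 was 361, 421, 316, 875 and 697 CPM in mice 1 to 5 and 448, 1072, 574, 543 and 566 in mice 6 to 10, with a log2 fold change of 0.13 (SE 0.29). S100a4 gave −0.35 (SE 0.53). T cells of the Rag1 cluster were 0% to 43.8% of the T cells in Jak2WT and 0% to 75.6% in mutant mice. This cluster was led by Rag1, Ccr9, Arpp21, Sox4 and Dntt, at a median of 3342 UMIs per cell against 7727 in the Lef1 cluster. It is therefore unlike the Lef1 cluster it was summed with. T cells of the Rag1 cluster had little S100a4, at 32.8 to 41.4 CPM. Their S100a10 was 331, 319, 145 and 354 CPM in mice 3, 6, 9 and 10, against 312 to 1072 in the Lef1 cluster. A fit without the Rag1 cluster was run as another setting, and its count of called genes is given below. In B cells 0 of 5 members was called (0 at an unadjusted p under 0.05, 0 by DESeq2) and 0% of 3621 genes, with 152 genes at an unadjusted p under 0.05 and 0 by DESeq2; S100a10 gave 0.46 (SE 0.23, adjusted p = 0.99). In ILC2 0 of 5 was called (0 at an unadjusted p under 0.05, 0 by DESeq2) and 0% of 1871 genes, with 116 at an unadjusted p under 0.05 and 1 by DESeq2; S100a10 gave 0.29 (SE 0.22). No member separated the genotypes fully in these 3 classes. Among all genes, every mutant mouse was above every Jak2WT mouse for 2.33% in T cells, 0.635% in B cells and 1.71% in ILC2, and below for 0.337%, 0.801% and 0.802%.

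**Figure D5:**
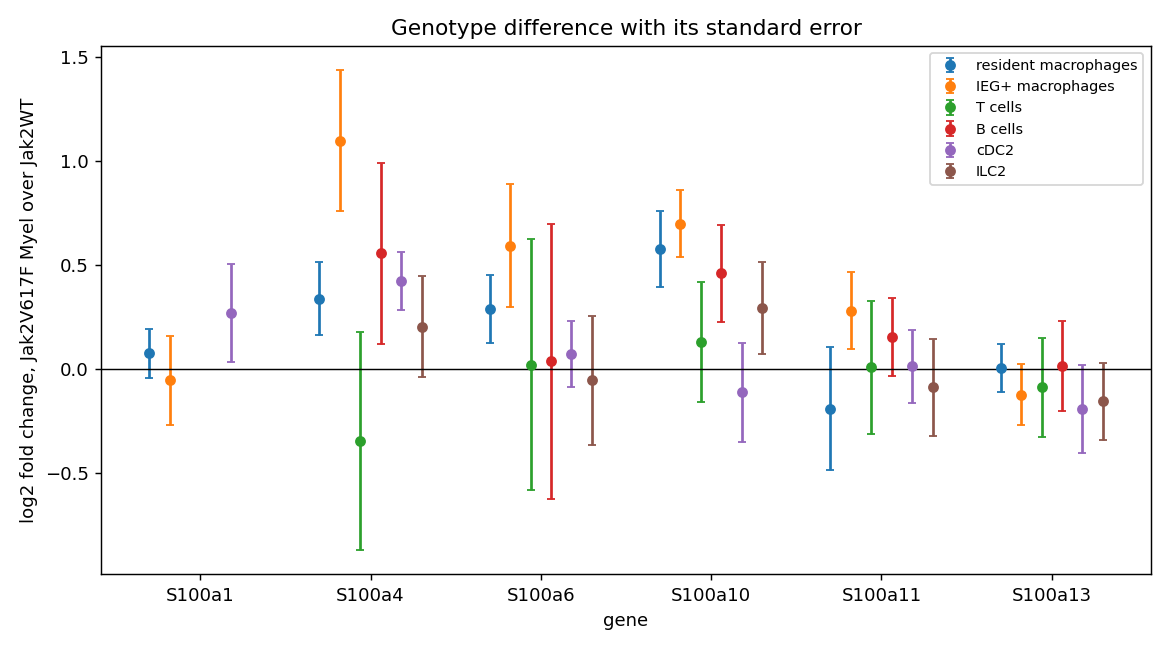
Log2 fold change (Jak2V617F Myel over Jak2WT) with its standard error for the 6 S100 genes tested outside neutrophils, in 6 cell classes. S100a10 lies at 0.58 in resident and 0.70 in IEG+ macrophages, and S100a1 and S100a13 lie within 0.27 of 0 in each class where they were tested.

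The genotype effect in resident macrophages was also tested against that in lymphocytes of the same mice, with the mouse as a block. For S100a10 the effects in resident macrophages and T cells differed by 0.54 on the log2 scale (SE 0.23, adjusted p = 0.44). None of 6 members was called (1 at an unadjusted p under 0.05, 0 by DESeq2), against 0.108% of 6485 genes. Against B cells the difference for S100a10 was 0.36 (SE 0.26, adjusted p = 0.99), and 0 of 6 members (0 at an unadjusted p under 0.05, 0 by DESeq2) and 0% of 7209 genes were called, with 367 genes at an unadjusted p under 0.05 and 0 by DESeq2. Neither test showed a genotype difference of S100a10 particular to resident macrophages. The T cell sums included the Rag1 cluster, and the B cell sums included the small B cell cluster. That small cluster scored 2.112 on B cell markers and 1.446 on macrophage markers, at a median of 16734.5 UMIs per cell. The large B cell cluster had a median of 5388. With either cluster left out S100a10 was again not called, and these fits too had few mice.

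Aneurysm was compared with dilation in a fit of all 3 groups, with 2 mice against 3. In resident macrophages the 6 members tested had log2 fold changes of 0.03 to 0.39, all above 0 and none called (0 at an unadjusted p under 0.05, 0 by DESeq2). For all 7481 genes 0% were called, with 273 at an unadjusted p under 0.05 and 0 by DESeq2, and their median was 0.00. S100a6 gave the largest of these differences, with 2059 and 1454 CPM in aneurysm mice 7 and 9 and 1342, 1526 and 1136 in dilation mice 6, 8 and 10 (0.39, SE 0.22, adjusted p = 1.00). In IEG+ macrophages 0 of 6 was called (0 at an unadjusted p under 0.05, 0 by DESeq2), against 0.0159% of 6306 genes, and S100a10 gave 0.23 (SE 0.22). Without aneurysm mouse 7, S100a8 and S100a9 passed the filter on low counts and were called there (3.31 and 3.96, adjusted p = 0.00971 and 9.24e-06), with 89.3% of their UMIs in aneurysm mice in the 1 cell of mouse 9 described above. In T cells 0 of 5 was called (0 at an unadjusted p under 0.05, 0 by DESeq2) and 0% of 4992 genes, with 226 at an unadjusted p under 0.05 and 0 by DESeq2; S100a4 gave 1.26 (SE 0.69, adjusted p = 0.95).

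In B cells S100a6 was 140 and 249 CPM in aneurysm mice 7 and 9, against 924, 609 and 2000 in dilation mice 6, 8 and 10. The share of all genes with both aneurysm mice below all 3 dilation mice was not counted, so this order cannot be weighed. The log2 difference of S100a6 was −2.74 (SE 0.76, adjusted p = 0.50). None of 5 members was called there (1 at an unadjusted p under 0.05, 0 by DESeq2), against 0.0457% of 4379 genes. Jak2WT B cells spanned 254 to 1622 CPM, which began just above the 249 of mouse 9, with 16 B cells, and overlapped with the dilation values. In the large B cell cluster alone the aneurysm mice had 148 and 381 CPM, within reach of the Jak2WT mice at 262 to 1732. The dilation mice had 623 to 2217 there.

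Dilation alone was compared with Jak2WT in resident macrophages in the same fit. S100a10 gave 0.46 (SE 0.21, adjusted p = 0.52), and 0 of 6 members was called (1 at an unadjusted p under 0.05, 0 by DESeq2), against 0.0401% of 7481 genes. The comparison shares its Jak2WT mice with the genotype comparison above.

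Among other genes of the pathway, 8 of 12 annexins could be tested in resident macrophages. Anxa1, the partner of S100A11, rose in mutant mice (log2 fold change 0.93, SE 0.18, adjusted p = 0.0236), and the median of the 8 was 0.24. Anxa1 was 74.8 CPM in pooled Res-Txnip hi cells, whose share did not overlap between genotypes, against 295 in Res-MGL1hi and 334 in Aqp1hi resident cells. In Res-Txnip hi cells only no gene of any kind was called, so that fit cannot decide on Anxa1. Of 14 partners and receptors 11 were tested there, and 0 were called. In IEG+ macrophages 0 of 8 annexins and 0 of 10 partners were called. Of 12 neutrophil genes 3 were tested in IEG+ macrophages, and Clec4d, a C-type lectin receptor of myeloid cells, rose (2.24, SE 0.45, adjusted p = 0.0499), at the edge of the threshold; the median of the 3 was −0.23. In T cells, B cells, cDC2, ILC2 and neutrophils, and in the comparisons of severity, no annexin, partner or neutrophil gene was called. The 8 further S100 genes of the fixed list did not reach the filter in any class; S100a16, with 78 UMIs over all kept cells, had the most of them.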

How the data were processed

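The authors deposited Cell Ranger counts of UMIs, cell by cell, made on the mm10 reference (GRCm38), for 32285 genes, 75 antibodies and 10 hashtags; these are whole counts without normalization. The submitters' processing notes list Seurat 3.0.0. Hashtags were assigned to groups from the labels' protocol. Barcodes were assigned to mice by HTODemux (quantile 0.99); only barcodes with a single hashtag stayed in, no other doublet caller was run, and cells with over 10% mitochondrial UMIs were removed. Cells were clustered in Seurat 5.3.0 (2000 variable genes, 20 components, resolution 0.3, macrophages alone at 0.8) with S100 genes taken out of the variable genes (7 for all cells, 6 for macrophages). Res-MGL1hi and Aqp1hi resident cells formed a single macrophage cluster at 0.8 and were separated by a further division of it at resolution 0.3. Clusters were named by at least 3 detected markers and a mean scaled score of at least 0.5 (0.3 for macrophage subsets); macrophage clusters whose median depth was below 1 in 3 of the macrophage median were removed. Work was done in R 4.3.3 with Matrix 1.6.5, edgeR 4.0.16 (TMM, filterByExpr, quasi-likelihood F test on sums per mouse with at least 10 cells) and DESeq2 1.42.0 as an alternative. SEs were derived from the fold change and its F value. Scripts were tested on simulated data.

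The members, lists and tests were chosen with earlier results of these data known. The genes named are the 8 members, for each the 3 genes with the highest Pearson correlation over classes, and called genes of 4 lists (other S100 genes, annexins, partners and receptors, neutrophil genes). With 10 mice in 1 pool the mouse is the replicate, and Jak2WT mouse 4 had the fewest cells and UMIs. Other settings were RLE scaling, DESeq2, no filter, 1 or 20 cells per sum, MULTIseqDemux, a 5% mitochondrial limit, macrophage resolutions 0.5 and 1.2, S100 genes kept in the clustering, low-RNA macrophages kept, other models and each mouse left out. Only resident subsets, T cells without the Rag1 cluster and B cells without the small cluster were added after seeing the data.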

Additional observations from a re-analysis of the deposited data

Results flagged for a closer look

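In 70 groups of 4 or 5 mice (a member, a class and a genotype), the highest or lowest mouse stood apart from the rest by Dixon's criterion in 6, where chance gives about 1 in 20 groups. S100a1 in B cells was 37.7 CPM in aneurysm mouse 9, with 16 cells, and 9.33 to 17.4 in the other mutant mice. S100a6 in T cells was 1090 CPM in Jak2WT mouse 4, with 12 cells, and 55.0 to 283 in the other controls. S100a10 in T cells was 1072 CPM in aneurysm mouse 7 and 448 to 574 in the other mutant mice. S100a10 in ILC2 was 1980 CPM in Jak2WT mouse 1, with 11 cells, and 1305 to 1397 in the other controls. S100a11 in resident macrophages was 470.7 CPM in Jak2WT mouse 4 and 125 to 192 in the other controls. S100a13 in B cells was 56.5 CPM in Jak2WT mouse 3 and 94.0 to 95.4 in the other controls.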

How the results depend on the processing

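Over 77 log2 fold changes of S100 genes, 931 of 955 values under other settings kept their direction and their side of the threshold, 12 passed the threshold that had not, and 12 changed sign; a fold within 1 SE of 0, as 40 of the 77 were, was given no direction. With 1 mouse left out, 740 of 743 were kept. Of 448 class levels under other settings 441 moved by less than 1 SD between mice, while 249 of 336 shares of cells moved with the thinning depth. The cause of a change was not tested unless stated. The genotype in ILC2 with at least 20 cells per sum could not be fitted. Hashtag numbers do not pair mice across groups, so only the tests between classes had the mouse as a block; without that replicate block the number of genes called against T cells was 2 in place of 7, and no S100 call changed.

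Folds that changed sign were those of S100a4 and S100a6 in resident macrophages (0.34 and 0.29) at macrophage resolution 0.5 (−0.42 and −0.39), in Res-Txnip hi cells only (−0.081 and −0.27) and in Res-MGL1hi and Aqp1hi cells only (−0.39 and −0.37). S100a11 in IEG+ macrophages became −0.0032 with MULTIseqDemux, and S100a10 in ILC2 −0.093 with sums of at least 1 cell. For aneurysm against dilation in IEG+ macrophages S100a10 became −0.15 with MULTIseqDemux and −0.11 at a mitochondrial limit of 5%. At resolution 0.5 S100a4 for dilation against Jak2WT became −0.52 and S100a10 against B cells −0.20.

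The number of genes called moved by more than 1.5 times as follows. In resident macrophages, 56 genes became 98 by DESeq2, 312 with no filter, 197 with MULTIseqDemux, 132 at a 5% mitochondrial limit, 2 at resolution 0.5, 0 in Res-Txnip hi cells only and 3 in Res-MGL1hi and Aqp1hi cells only. In IEG+ macrophages, 12 became 29 with 3 groups in 1 fit, 52 by DESeq2, 178 with no filter, 22 with at least 20 cells, 4 with S100 genes kept in the clustering, 4 with MULTIseqDemux, 2 at the 5% limit, 23 and 39 at resolutions 0.5 and 1.2, and 1 with low-RNA macrophages kept. In T cells, 1 became 4 by DESeq2, 25 with no filter, and 0 with 3 groups in 1 fit, at least 20 cells, S100 genes kept, the 5% limit or no Rag1 cluster. In B cells 0 became 32 with no filter. In cDC2, 1 became 22 by DESeq2, 73 with no filter, 5 with at least 1 cell, and 0 with at least 20 cells, MULTIseqDemux or the 5% limit. In ILC2, 0 became 1 by DESeq2 and 40 with no filter, and in neutrophils 30 and 59.

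For aneurysm against dilation, 0 in resident macrophages became 41 with no filter and 1 each with MULTIseqDemux, the 5% limit and low-RNA macrophages kept. In IEG+ macrophages 1 became 3 by DESeq2, 37 with no filter, 2 with at least 20 cells, 3 at the 5% limit, and 0 with only the 2 groups compared, S100 genes kept, MULTIseqDemux or low-RNA macrophages kept. In T cells 0 became 57 with no filter, and in B cells 2 became 12 by DESeq2, 96 with no filter, and 0 at the 5% limit or without the small cluster. For dilation against Jak2WT 3 became 24 by DESeq2, 207 with no filter, 6 with S100 genes kept, 42 with MULTIseqDemux, 21 at the 5% limit and 5 at resolution 1.2. Against T cells 7 became 12 by DESeq2, 63 with no filter, 11 with MULTIseqDemux, 0 and 4 at resolutions 0.5 and 1.2, 2 with low-RNA macrophages kept and 20 without the Rag1 cluster. Against B cells 0 became 33 with no filter, 1 with at least 20 cells, 3 with MULTIseqDemux, 1 at the 5% limit and 9 without the small cluster.

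Of S100 genes, with no filter 1 was called in resident macrophages, 4 in IEG+ macrophages, 2 for aneurysm against dilation in IEG+ macrophages, 1 there in T cells, 1 in B cells and 1 for dilation against Jak2WT, against 0 in the reported tests. MULTIseqDemux called 1 in resident macrophages, DESeq2 1 in IEG+ macrophages and 1 in neutrophils, and resolutions 0.5 and 1.2 each 1 in IEG+ macrophages. Leaving out 1 mouse gave 5 to 155 genes in resident macrophages, 1 to 33 in IEG+ macrophages, 0 to 2 in T cells, 0 in B cells, 1 to 6 in cDC2, 0 to 1 in ILC2 and 0 to 7 in neutrophils. It gave 0 to 1, 0 to 3, 0 and 0 to 53 for aneurysm against dilation in resident and IEG+ macrophages, T cells and B cells, 2 to 31 for dilation, 2 to 24 against T cells and 0 to 1 against B cells. S100 calls then ran from 0 to 1 in resident macrophages, IEG+ macrophages and neutrophils, and from 0 to 2 for aneurysm against dilation in IEG+ macrophages. Neutrophils had 3 to 38 cells per mouse.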

Other observations

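The proliferating class, 140 cells of mixed lineage, held 7653 UMIs of S100a8 and 7108 of S100a9. Of these, 99.8% lay in 6 cells, 2 of dilation and 4 of aneurysm mice, with up to 7566 in 1 cell; the 52 proliferating cells of Jak2WT mice held 7 and 1 UMIs. Their S100a9 share of both genes was 48.2%, against 57.5% in neutrophils (exact 95% intervals 47.3% to 49.0% and 57.1% to 57.9%, counting error only).

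The 389 cells of the low-RNA macrophage clusters, which were left out of the reported comparisons, had S100a10 at 390 ± 214 CPM in 5 Jak2WT mice and 770 ± 235 in 5 mutant mice, with ranges of 218 to 738 and 523 to 1066 that overlap. No test was run on these cells alone.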
